A study of Mus musculus with 24 samples.

Results

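The genes described here are 22 genes outside mouse chromosome 8 whose RNA stood higher in cells given the chemokine receptor CCR7 than in cells given the vector control, out of 13915 genes present in the count tables of both sequencing batches. They were chosen by their measured levels, in CPM (a gene's count divided by the library's total count, times 1000000), averaged over the 4 libraries of a group. A gene was taken when 3 ratios were at least 2.5, namely CCR7 to X2 and CCR7-PDPN to X2 in batch 1 and CCR7-PDPN to X2 in batch 2. It also needed a ratio of X2-PDPN to X2 below 1.5 in batch 2 and a mean of at least 1 CPM in CCR7. Every value of a member from those comparisons is therefore a description of the choice and was not tested. The same holds for CCR7-PDPN against X2-PDPN in batch 2, where the rule allows no ratio under 1.67. CCR7-PDPN against CCR7 in batch 1 was tested. The rule did not use that ratio, but it used the means of both groups, so the choice limits how far a member could fall.

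EO771 is a mouse mammary carcinoma line that arose spontaneously in a C57BL/6 animal. All 4 cell derivatives carried a pLNCX2 retroviral vector, selected for with G418, and no single clones were selected. The CCR7, CCR7-PDPN and X2-PDPN cells were sorted by flow cytometry. X2 received the vector control, and CCR7 received mouse Ccr7 cDNA and was sorted as podoplanin-negative. The fluorescent reporter tdTomato came with the receptor's vector, and cells with tdTomato and CCR7 were enriched by flow cytometry. The study reported a control of tdTomato levels between cell derivatives, and it stained an X2 tumour for tdTomato too. CCR7-PDPN came from the CCR7-transduced cells, and X2-PDPN from the vector control cells, both by sorting for podoplanin (PDPN) that had appeared on its own. Batch 1 was made up of X2, CCR7 and CCR7-PDPN, while batch 2 contained X2 again with X2-PDPN and CCR7-PDPN, each with 4 technical replicates, in 24 stranded mRNA libraries of single-end 75-base reads mapped to GRCm38 (mm10). The replicates are technical, so a p-value measures only the spread between preparations of the same cells. The libraries of batch 1 held 22275468 to 33395418 counts and those of batch 2 held 22788542 to 35721027.

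Among the 24, 1 library stood apart from its replicates. The chi-square per degree of freedom between replicates, which is near 1 where counting error alone separates them, was 20.4, 16 and 12.3 between replicate 1 of CCR7 and the other CCR7 libraries, and 1.99 to 7.81 in every other pair. That library belongs to a group of the tested comparison, so the calls among the members there are given with and without it. Without it the rule gave 23 genes, of which 20 were among the 22, and Tspoap1 and Gm43305 were the genes lost.

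CCR7 is a receptor coupled to inhibitory G proteins that guides dendritic cells and T cells towards lymph nodes along gradients of the chemokines CCL19 and CCL21, and tumour cells that carry it can take the same route. Thymosin beta-4, the product of Tmsb4x, holds actin monomers in reserve for the filaments that a moving cell builds. The gamma protocadherins, to which Pcdhgb1 belongs, are adhesion proteins of a gene cluster in which each isoform joins its own first exon to constant exons shared by the cluster.

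The transduced gene itself, Ccr7 (ENSMUSG00000037944, chromosome 11, 99144196 to 99155077), was at 0.527, 0.168, 0.289 and 0.413 CPM in the 4 X2 libraries of batch 1. It was at 2739, 2826, 2833 and 2768 CPM in CCR7 and at 3095, 3089, 3041 and 2774 CPM in CCR7-PDPN. In batch 2, Ccr7 stood at 0.335, 0.179, 0.396 and 0.467 CPM in X2, at 0.951, 0.476, 0.779 and 0.441 CPM in X2-PDPN and at 3379, 3112, 3144 and 2945 CPM in CCR7-PDPN. Every library given the receptor lay above every library given the vector, and the CCR7 and CCR7-PDPN libraries of batch 1 overlapped. Ccr7 was not among the 22 genes, since its ratio of X2-PDPN to X2 was 1.92. The other sort marker, Pdpn, averaged 0.0626 CPM in X2, 0.413 CPM in CCR7 and 25.3 CPM in CCR7-PDPN of batch 1, and 0.162, 25.7 and 24.4 CPM in X2, X2-PDPN and CCR7-PDPN of batch 2. The groups thus carried the markers that their labels give.

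Of the 22 genes, 16 were annotated as protein coding, 3 as long intergenic non-coding RNA, 1 as antisense, 1 as a processed transcript and 1 as to be experimentally checked. Their means in CCR7 were modest. They reached 10 CPM in 4 genes, lay between 2 and 10 CPM in 8 and were under 2 CPM in 10. In X2 of batch 1, 13 genes averaged under 0.5 CPM and 5 averaged 1 CPM or more. In a bulk library, fewer cells that make an RNA and less of that RNA per cell cannot be told apart. All 22 passed the filter on low counts in both batches, in which 13261 and 13314 genes were tested.

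Tmsb4x (ENSMUSG00000049775, chromosome X, 167207093 to 167209315, minus strand) codes for the actin-binding thymosin beta-4. Its 4 X2 libraries of batch 1 held 0.0702, 0.126, 0.128 and 0.138 CPM, those of CCR7 held 12.4, 11.7, 12.6 and 12.5 CPM and those of CCR7-PDPN held 3.19, 2.73, 3.11 and 2.74 CPM. In batch 2 Tmsb4x was at 0.149, 0.107, 0.165 and 0.10 CPM in X2, at 0, 0.0280, 0.0339 and 0 CPM in X2-PDPN and at 4.08, 3.12, 4.30 and 4.55 CPM in CCR7-PDPN. All CCR7 libraries were high, all CCR7-PDPN libraries of both batches stood between CCR7 and X2, and no groups within a batch overlapped. The ratio of CCR7 to X2 was 107, from 1436 reads against 13 summed over the libraries, which gave a 95% interval of 62.1 to 201. With 2 reads in all of X2-PDPN, CCR7-PDPN stood above it by a ratio of summed reads of 245, with an interval of 67.5 to 2032. Such intervals are exact (Clopper-Pearson), and they and the floors used further on cover counting error only. They allow neither for the choice of the genes by these levels nor for spread between libraries beyond counting error, so they describe and do not test. As TPM, the count per exonic base scaled to a library sum of 1000000, Tmsb4x averaged 33.8 ± 0.997 (SD, n = 4) in CCR7, above 59.7% of the 13915 genes, and 0.312 ± 0.0825 in X2, above 4.20% of them.

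The fall of Tmsb4x from CCR7 to CCR7-PDPN was part of the tested comparison. Its log2 fold change was −2.05 (SE 0.08), with an adjusted p of 8.0e-14 by edgeR's quasi-likelihood F-test, adjusted by Benjamini-Hochberg over 13261 genes, and 4 of 4 CCR7-PDPN libraries were lower than all 4 CCR7 libraries. The rule allowed this fall, since a gene with the CCR7 level of Tmsb4x could drop to a log2 ratio of −5.41 and still be at 2.5 times its X2 level.

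The other genes that bind actin monomers were read from a list of 15 beta-thymosins, profilins, cofilins, cyclase-associated proteins and twinfilins, of which 10 were tested and 1, Tmsb4x, was a member. In CCR7-PDPN against CCR7, edgeR called 1 of the 10 higher and 1 lower, where 0.664% of all genes were called higher and 2.60% lower. At an unadjusted p under 0.05 there were 8 higher and 1 lower, beside 24.6% and 24.4% of all genes. The gene called higher was Pfn2, a profilin under 1 CPM in every group that is named after its values were seen, and the gene called lower was Tmsb4x. Of the 9 tested genes that were not members, 0 were called higher in CCR7 than in X2 by edgeR and 0 by DESeq2, and 1, again Pfn2, was called lower, beside 3.30% and 3.18% of all genes by edgeR and 1.80% and 1.85% of the 27672 genes in the table of DESeq2, including those it left without an adjusted p. Of the same 9, 6 were higher and 1 lower at an unadjusted p under 0.05, beside 27.2% and 27.6% of all genes. Counts over non-members in CCR7 against X2, here and further on, leave out the genes that the same comparison made members, so they describe the remaining genes and are no test of the list. Pfn2 was not tested when only genes with at least 50 counts in 4 or more libraries were kept. Tmsb10, the abundant beta-thymosin of these cells, averaged 674 ± 15.1 CPM in X2, 689 ± 65.1 CPM in CCR7 and 811 ± 65.8 CPM in CCR7-PDPN. The median log2 fold change of the list was 0.18 in CCR7-PDPN against CCR7, beside −0.00 over all genes tested, and 0.14 for its non-members in CCR7 against X2, beside 0.00.

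Pcdhgb1 (ENSMUSG00000103037, chromosome 18, 37680233 to 37841870, plus strand) codes for a gamma protocadherin of the B subfamily. It was at 0.176, 0.126, 0.193 and 0.310 CPM in the X2 libraries of batch 1, at 6.18, 6.43, 6.32 and 6.51 CPM in CCR7 and at 4.82, 5.27, 4.40 and 5.54 CPM in CCR7-PDPN. In batch 2, Pcdhgb1 stood at 0.335, 0.179, 0.363 and 0.267 CPM in X2, at 0.0656, 0.280, 0.135 and 0.0735 CPM in X2-PDPN and at 5.66, 5.07, 5.31 and 4.98 CPM in CCR7-PDPN. The libraries with the receptor were all far above those without it, X2 and X2-PDPN overlapped, and the 4 CCR7-PDPN libraries of batch 1 lay below the 4 of CCR7. The ratio to X2 was 31.7 in CCR7 and 24.9 in CCR7-PDPN, and in batch 2 that of CCR7-PDPN was 18.4. The log2 fold change of CCR7-PDPN against CCR7 was −0.33 (SE 0.10), which edgeR did not call.

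Pcdhgb1 shares exons with its cluster, so that 2622 of its 5776 exonic bases (45.4%) lay outside the exons of other genes on its strand. Of its 5702 windows of 75 bases, the length of a read, 3346 (58.7%) also occurred in overlapping genes of the cluster. How the authors' counting assigned reads of shared exons is not given in the sources used here.

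The cluster was therefore read beside it. Of 22 listed gamma protocadherins, 8 were tested, and in CCR7-PDPN against CCR7 edgeR called 0 higher and 0 lower, beside 0.664% and 2.60% of all genes. At an unadjusted p under 0.05 there were 0 higher and 1 lower, beside 24.6% and 24.4%, and DESeq2 called 1 gene of the list lower, beside 1.42% of its genes. Of the 7 tested that were not members, 3 were called higher in CCR7 than in X2 and 0 lower by edgeR, beside 3.30% and 3.18% of all genes. At an unadjusted p under 0.05 there were 6 higher and 0 lower, beside 27.2% and 27.6%. The 3 were Pcdhga2, Pcdhga3 and Pcdhgb8, all under 1 CPM in every group, and they are named after their values were seen. With DESeq2 the number called higher was 6, counted over every non-member of the list, beside 1.80% of its genes, and under the filter of 50 counts it was 0, since none of the 3 was tested there. Pcdhgc5, the isoform of the cluster with the highest count, averaged 27.6 CPM in X2, 50.3 CPM in CCR7 and 50.6 CPM in CCR7-PDPN. Its log2 fold change of CCR7 against X2 was 0.88 (SE 0.05), short of the threshold of 1, and in batch 2 it averaged 28.0 CPM in X2 and 46.6 CPM in X2-PDPN. Pcdhgb2 went from 2.22 CPM in X2 to 2.68 CPM in CCR7 and Pcdhgb7 from 0.782 to 1.14 CPM. Without the receptor, in batch 2, Pcdhgb2 averaged 2.64 CPM in X2 and 3.92 CPM in X2-PDPN, Pcdhgb7 0.822 and 2.61 CPM and Pcdhgb6 0.555 and 1.36 CPM. The list's median log2 fold change was 0.05 in CCR7-PDPN against CCR7, and 0.88 for non-members in CCR7 against X2.

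Trim2 (ENSMUSG00000027993, chromosome 3, 84160439 to 84306877, minus strand), which codes for a RING-type E3 ubiquitin ligase, had the highest count of the set. Its X2 libraries of batch 1 held 7.62, 9.21, 8.67 and 10.3 CPM, those of CCR7 24.1, 27.1, 26.0 and 24.1 CPM and those of CCR7-PDPN 35.2, 38.0, 38.3 and 36.8 CPM. In batch 2 Trim2 was at 8.60, 9.45, 8.31 and 7.53 CPM in X2, 9.08, 8.87, 9.41 and 10.0 CPM in X2-PDPN and 38.9, 38.4, 38.7 and 37.8 CPM in CCR7-PDPN. The 3 groups of batch 1 did not overlap, with CCR7-PDPN the highest, and X2 and X2-PDPN overlapped. Trim2 rose from a ratio to X2 of 2.84 in CCR7 to 4.15 in CCR7-PDPN of batch 1, and its log2 fold change between them was 0.56 (SE 0.06).

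Psd2 (ENSMUSG00000024347, chromosome 18, 35964830 to 36014715, plus strand) codes for a guanine nucleotide exchange factor for the small GTPase ARF6, which acts in endosomal traffic and at the cell cortex. It was at 3.79, 3.94, 3.69 and 3.72 CPM in X2 of batch 1, at 15.6, 13.1, 12.1 and 15.0 CPM in CCR7 and at 9.19, 10.2, 11.1 and 10.5 CPM in CCR7-PDPN. Batch 2 gave 3.58, 4.58, 3.53 and 3.57 CPM for Psd2 in X2, 2.72, 3.28, 3.49 and 3.53 CPM in X2-PDPN and 10.3, 10.4, 15.2 and 11.7 CPM in CCR7-PDPN. Here CCR7 was the highest group, all 4 of its libraries lay above those of CCR7-PDPN in batch 1, and X2 and X2-PDPN overlapped. The log2 fold change of CCR7-PDPN against CCR7 was −0.43 (SE 0.08), not called, and the rule would have allowed a log2 ratio no lower than −0.56.

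Among the enzymes, Cyp2j6 (ENSMUSG00000052914, chromosome 4, 96516138 to 96553661, minus strand) codes for a cytochrome P450. The X2 libraries of batch 1 held 2.77, 2.85, 2.63 and 3.34 CPM of it, those of CCR7 11.2, 11.8, 13.6 and 11.3 CPM and those of CCR7-PDPN 11.6, 9.44, 11.6 and 11.8 CPM. In batch 2 Cyp2j6 stood at 3.09, 2.79, 3.46 and 3.20 CPM in X2, 2.23, 2.02, 2.24 and 2.10 CPM in X2-PDPN and 10.7, 9.33, 10.8 and 11.8 CPM in CCR7-PDPN. CCR7 and CCR7-PDPN overlapped, and all X2-PDPN libraries were below all X2 libraries, at a ratio of 0.684.

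Acot11 (ENSMUSG00000034853, chromosome 4, 106744555 to 106804998, minus strand) codes for a thioesterase that releases fatty acids from acyl-CoA. It was at 1.40, 2.26, 1.22 and 1.31 CPM in X2 of batch 1 and at 9.81, 7.67, 7.43 and 7.00 CPM in CCR7, and all 4 CCR7-PDPN libraries rounded to 14.4 CPM. In batch 2 Acot11 was at 1.86, 1.47, 1.29 and 1.50 CPM in X2, 2.30, 1.93, 1.56 and 1.95 CPM in X2-PDPN and 14.1, 13.8, 12.5 and 13 CPM in CCR7-PDPN. CCR7-PDPN was above CCR7 in every library of batch 1, and X2 and X2-PDPN overlapped. The ratio to X2 was 5.15 in CCR7, and 9.29 and 8.73 in CCR7-PDPN of the respective batches. The log2 fold change of CCR7-PDPN against CCR7, 0.85 (SE 0.10), was the largest rise of the set in that comparison and lay under the threshold of 1.

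The remaining enzyme, Cryzl2 (ENSMUSG00000033488, chromosome 1, 157458577 to 157492638, plus strand), codes for a protein of the zeta-crystallin family of quinone oxidoreductases. It averaged 0.0610 ± 0.10 CPM in X2, 2.17 ± 0.225 CPM in CCR7 and 1.56 ± 0.163 CPM in CCR7-PDPN (mean ± SD, n = 4). Its X2 libraries held 6 reads in all, 5 of them in replicate 2, against 253 in CCR7, so that the ratio of summed reads had an interval of 18.4 to 112.

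Tspoap1 (ENSMUSG00000034156, chromosome 11, 87760541 to 87785928, plus strand) codes for a scaffold of the RIM-binding protein family that also binds the mitochondrial translocator protein. It was at 2.32, 2.43, 2.02 and 2.82 CPM in X2 of batch 1, 8.65, 5.33, 4.70 and 6.46 CPM in CCR7 and 8.76, 8.07, 10.8 and 7.41 CPM in CCR7-PDPN. For Tspoap1, batch 2 gave 2.20, 2.51, 2.11 and 3.17 CPM in X2, 3.15, 3.53, 4.67 and 2.83 CPM in X2-PDPN and 7.94, 8.12, 10.5 and 6.91 CPM in CCR7-PDPN. CCR7 and CCR7-PDPN overlapped, as did X2 and X2-PDPN, and the gene sat near the edges of the rule with a ratio of CCR7 to X2 of 2.62 and of X2-PDPN to X2 of 1.42. It left the set in 4 of the 24 recalculations that each left out 1 library, namely those without X2 replicate 3 or CCR7 replicate 1 of batch 1 and without X2 replicate 4 or X2-PDPN replicate 4 of batch 2.

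Further proteins with scaffold or membrane-traffic domains were Anks1b and Enthd1. Anks1b (ENSMUSG00000058589, chromosome 10, 89873509 to 90973300), which codes for an ankyrin-repeat protein known from synapses, averaged 0.231 ± 0.0264 CPM in X2, 2.31 ± 0.503 CPM in CCR7 and 3.44 ± 0.321 CPM in CCR7-PDPN. Enthd1 (ENSMUSG00000050439, chromosome 15, 80452240 to 80565156), named for its epsin N-terminal homology domain, averaged 0.531 ± 0.0951, 2.17 ± 0.258 and 2.58 ± 0.342 CPM in the same groups. Anks1b had ratios to X2 of 9.99, 14.9 and 17.4 in the order of the rule, and Enthd1 of 4.08, 4.85 and 3.26.

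Proteins of the cell surface or its surroundings came from 4 more genes. Tmem144 (ENSMUSG00000027956, chromosome 3, 79812564 to 79852773), a predicted multi-pass membrane protein, held 0.140, 0.0838, 0.193 and 0.0344 CPM in X2 of batch 1, 1.91, 1.93, 1.89 and 2.07 CPM in CCR7 and 0.438, 0.508, 0.803 and 0.434 CPM in CCR7-PDPN. Its CCR7 libraries were all higher than its CCR7-PDPN libraries, which in turn were all above X2. The log2 fold change of CCR7-PDPN against CCR7 was −1.82 (SE 0.22, adjusted p 1.1e-06 by edgeR's quasi-likelihood F-test, adjusted by Benjamini-Hochberg), lower in 4 of 4 libraries, where the rule allowed a log2 ratio down to −2.79. Tmem144 was not tested when only genes with at least 50 counts were kept.

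Gfra4 (ENSMUSG00000027316, chromosome 2, 131039632 to 131043088), a membrane-anchored receptor of the glial cell line-derived neurotrophic factor family, had 0 reads in the 4 X2 libraries of batch 1, 153 in CCR7 and 108 in CCR7-PDPN. Against a floor of 3 counts per library, CCR7 was at least 12.2-fold higher and CCR7-PDPN at least 8.24-fold higher. In batch 2 its X2 libraries had 1 read, X2-PDPN had 0 and CCR7-PDPN had 109, which gave a ratio of summed reads of CCR7-PDPN to X2 of 111 with an interval of 19.4 to 4406. It left the set when the X2 library with that read, replicate 4 of batch 2, was left out, because X2 and X2-PDPN were then both at 0 in batch 2 and gave no ratio. In batch 1, where X2 was at 0 and the receptor groups were not, the ratios were taken as above 2.5.

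Trpv4 (ENSMUSG00000014158, chromosome 5, 114622152 to 114658421) codes for a calcium-permeable cation channel opened by swelling and warmth, and averaged 0.448 ± 0.104 CPM in X2, 1.38 ± 0.475 CPM in CCR7 and 1.70 ± 0.256 CPM in CCR7-PDPN. Lgals7 (ENSMUSG00000053522, chromosome 7, 28863853 to 28866284) codes for a galectin, a lectin that binds beta-galactosides and is known from stratified epithelia, and averaged 0.40 ± 0.122, 1.45 ± 0.457 and 1.30 ± 0.179 CPM. Mab21l2 (ENSMUSG00000057777, chromosome 3, 86545581 to 86548629), needed for development of the eye, averaged 0.830 ± 0.130, 2.69 ± 0.365 and 2.87 ± 0.414 CPM. Of these, Mab21l2 stood lower in X2-PDPN than in X2, at a ratio of 0.395, while Trpv4 had the ratio nearest to the limit, at 1.45. Gm19345 (ENSMUSG00000092216, chromosome 7, 19852003 to 19858350), a predicted coding gene of unknown role, averaged 0.354 ± 0.114, 1.31 ± 0.168 and 1.40 ± 0.390 CPM.

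The non-coding gene with the highest count was 1700086P04Rik (ENSMUSG00000085085, chromosome 4, 129050097 to 129057983, minus strand), a long intergenic RNA of unknown role. It was at 0.807, 0.963, 0.674 and 0.826 CPM in X2 of batch 1, 2.97, 3.75, 2.58 and 2.83 CPM in CCR7 and 3.28, 2.89, 3.84 and 3.20 CPM in CCR7-PDPN. In batch 2, 1700086P04Rik stood at 0.894, 0.788, 1.25 and 0.867 CPM in X2, 0.951, 0.588, 0.745 and 0.846 CPM in X2-PDPN and 2.98, 4.24, 3.93 and 3.53 CPM in CCR7-PDPN. The groups with the receptor overlapped each other, those without it did likewise, and no library crossed between them. The ratios to X2 were 3.71, 4.04 and 3.86 in the order of the rule.

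The other non-coding genes had means of 1.09 to 1.89 CPM in CCR7. Gm20633 (ENSMUSG00000093553, chromosome 3, 96243550 to 96246380) is annotated as antisense and overlaps a histone H2A gene. It averaged 0.713 ± 0.177 CPM in X2 and 1.89 ± 0.323 CPM in CCR7. Gm43672 (ENSMUSG00000106019, chromosome 3, 22074412 to 22076142) averaged 0.211 ± 0.131 and 1.48 ± 0.131 CPM, and Gm14963 (ENSMUSG00000085196, chromosome 19, 6268795 to 6276605) 0.458 ± 0.070 and 1.22 ± 0.0933 CPM. Their roles are not known. Gm43305 (ENSMUSG00000105703, chromosome 14, 54292443 to 54297456) averaged 0.406 ± 0.188 CPM in X2 and 1.09 ± 0.322 CPM in CCR7, and Gm38391 (ENSMUSG00000103622, chromosome 9, 92538801 to 92542869) 0.332 ± 0.156 and 1.09 ± 0.124 CPM.

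**Figure D1:**
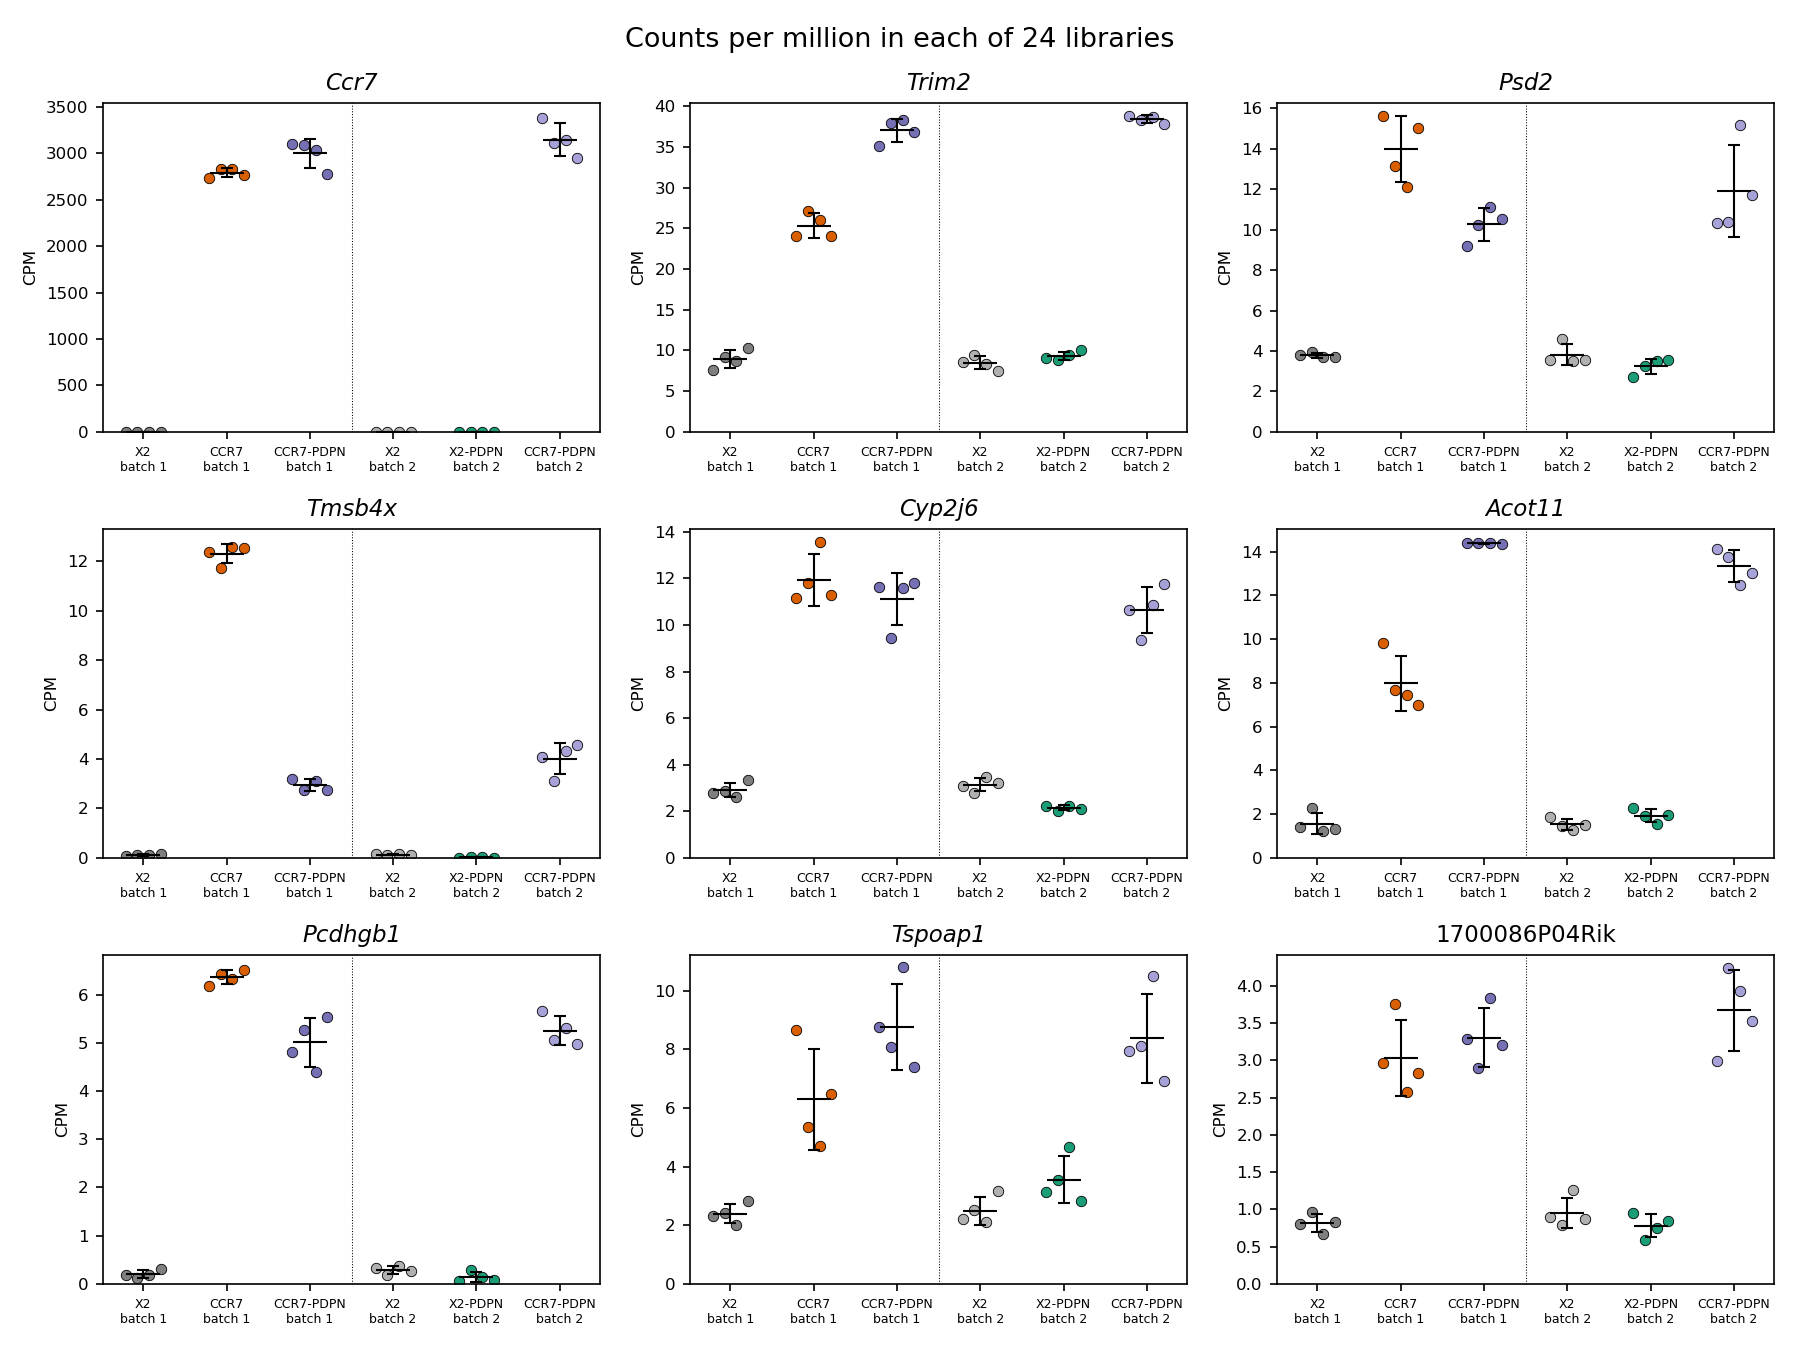
Levels in CPM of Ccr7 and 8 members of the set in the 24 libraries, with a point for each library, a bar for the group mean, an error bar of 1 SD and a dotted line between the batches. Each vertical axis starts at 0, and the libraries of CCR7 and CCR7-PDPN lie above those of X2 and X2-PDPN in every panel. The members were chosen by these group means and Ccr7 was the transduced gene, so the separation describes the choice.

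Over the set, the ratio of CCR7 to X2 in batch 1 had a median of 3.70 and ran from 2.62 to 107 in the 21 genes with reads in X2. The ratio of CCR7-PDPN to X2 had a median of 3.95 in batch 1 and 3.62 in batch 2. The ratio of X2-PDPN to X2 had a median of 0.913, with 10 genes above 1 and 12 below. Against X2-PDPN, the ratio of CCR7-PDPN had a lowest value of 2.01, in Trpv4, and a median of 4.11 in the 21 genes with reads in X2-PDPN, where the rule allows nothing under 1.67. The same ratios had medians of 0.983 to 0.998 over the 11302 genes with at least 1 CPM. The rule asked for high ratios of CCR7-PDPN to X2 in both batches, so the levels of the batches are given side by side without a reading. The median ratio of batch 2 to batch 1 was 0.988 for CCR7-PDPN (0.694 to 1.36, 22 genes) and 1.04 for X2 (0.726 to 1.57, 21 genes).

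Some genes lay close to the thresholds. The smallest of the 3 ratios was 2.54 in Gm14963, 2.62 in Tspoap1 and 2.64 in Gm43305, and the genes next outside were Dmbx1 at 2.47, Pigp at 2.46 and Gbx2 at 2.44. The highest ratios of X2-PDPN to X2 in the set were 1.45 in Trpv4, 1.42 in Tspoap1 and 1.36 in Gm43672, and the genes next over the limit were Chrng at 1.52, Tulp2 at 1.66 and Txlnb at 1.73. A further 40 genes met all conditions but the limit on X2-PDPN, 20 all but the level in CCR7 and 9 all but the chromosome.

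**Figure D2:**
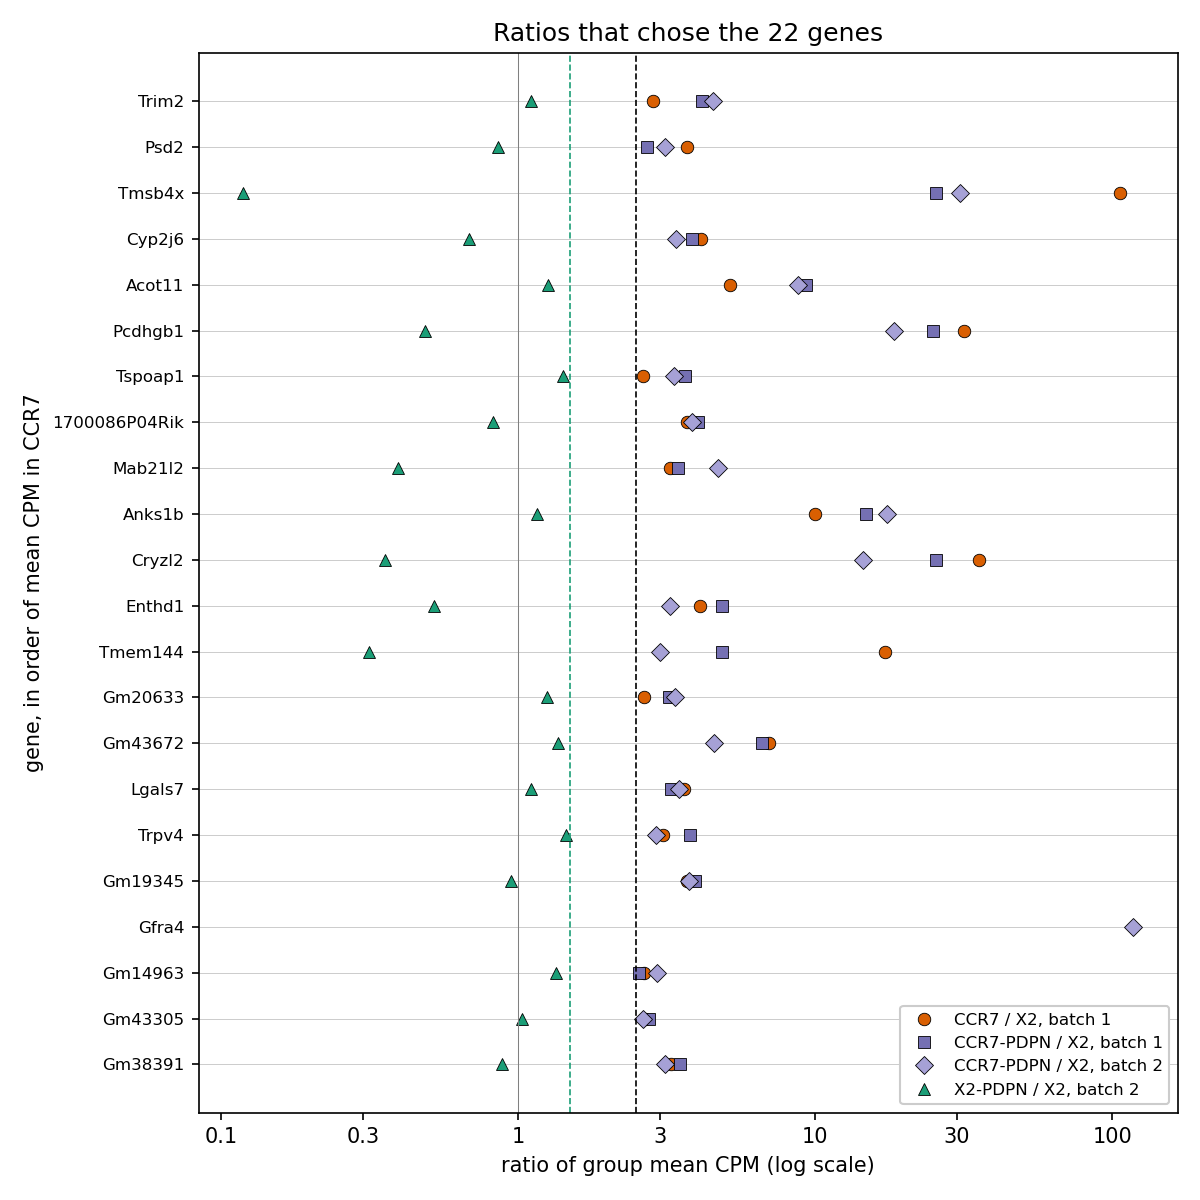
Ratios of group mean CPM for the 22 genes on a log axis, ordered by their mean in CCR7. Circles and squares show CCR7 and CCR7-PDPN over X2 in batch 1, diamonds CCR7-PDPN over X2 and triangles X2-PDPN over X2 in batch 2, and dashed lines mark 2.5 and 1.5. Gfra4 has a diamond alone, since it had 0 reads in X2 of batch 1 and in X2-PDPN.

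Compared per length, the order of the set in CCR7 differed from that by count. Tmsb4x was highest at 33.8 TPM, followed by Cyp2j6 at 12.5 ± 1.19 TPM, 1700086P04Rik at 11.3 ± 1.96 TPM and Psd2 at 11.0 ± 1.22 TPM, which did not differ beyond their spread. Next came Lgals7 at 5.88 ± 1.86 TPM, Gm19345 at 4.98 ± 0.673 TPM, Acot11 at 4.95 ± 0.712 TPM and Trim2 at 4.83 ± 0.324 TPM, again within their spread. Pcdhgb1 was at 4.15 TPM over its full exonic length, and the lowest was Anks1b at 0.600 TPM. Trim2, first by count, thus stood lower per length. These lengths span the exons of all annotated transcripts, 19751 bases over 19 transcripts in Trim2, and the transcripts in use were not measured.

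Whether the set changed with PDPN among cells that all carried the receptor was asked by comparing CCR7-PDPN with CCR7 in batch 1. By edgeR, 2 of the 22 genes were called lower, Tmsb4x and Tmem144, and 0 were called higher, beside 2.60% and 0.664% of all genes tested. At an unadjusted p under 0.05 there were 6 lower and 4 higher, beside 24.4% and 24.6% of all genes. DESeq2 called 2 lower and 0 higher, beside 1.42% and 0.340% of its genes. For 14 of the 22 genes a call in the lower direction was barred by the choice itself, because their ratio in CCR7 left no room for a log2 fall of 1 before CCR7-PDPN dropped under 2.5 times X2, so the falls could come from the other 8 alone. Rises had no such bound, but the limit on X2-PDPN took out genes that stood higher with PDPN in cells without the receptor. That limit alone removed 40 genes, so the choice may also have lowered the number called higher, which was not tested. The minimum of 1 CPM was asked of CCR7 and not of CCR7-PDPN, which favours genes with high readings in CCR7. Without replicate 1 of CCR7, edgeR called the same 2 members lower and 0 higher, with log2 fold changes of −2.05 in Tmsb4x and −1.84 in Tmem144, and those of Acot11 and Tspoap1 went from 0.85 to 0.96 and from 0.49 to 0.70.

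Without the threshold on fold change, an adjusted p under 0.05 by edgeR was reached upwards by 4 genes and downwards by 4, beside 20.9% and 20.7% of all genes. The 4 higher were Acot11, Trim2, Anks1b with a log2 fold change of 0.58 (SE 0.14) and Tspoap1 with 0.49 (SE 0.17). The 4 lower were Tmsb4x, Tmem144, Psd2 and Pcdhgb1. All 4 CCR7-PDPN libraries lay above all 4 CCR7 libraries in 2 genes and below them in 6, and the libraries of the other 14 overlapped. Over all genes the groups stood apart upwards in 15.4% and downwards in 18.4%. The median log2 fold change of the set was 0.08, beside −0.00 over all genes, with 12 genes above 0 and 10 below. Of those near 0, Gm19345, Gm14963 and Gm43305 changed sign when single libraries were left out.

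**Figure D3:**
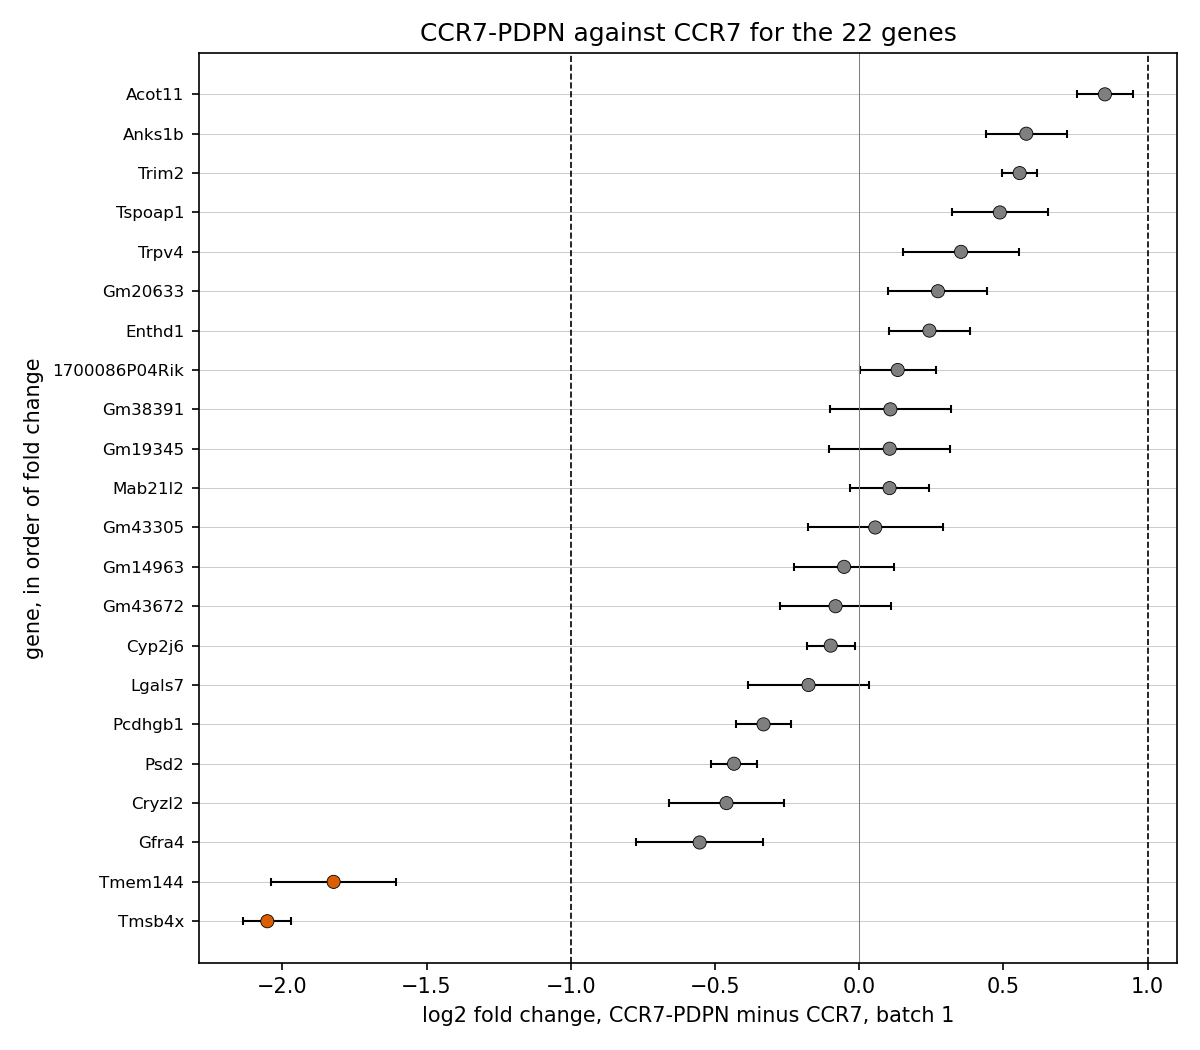
Log2 fold change of CCR7-PDPN against CCR7 in batch 1 for the 22 genes, with error bars of 1 SE from 4 libraries a group. Orange points mark Tmsb4x and Tmem144, the 2 genes called lower, and dashed lines mark log2 fold changes of −1 and 1.

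In the comparisons that chose the set, the members' calls were not counted, and the shares of all genes called are given as background. They were 3.30% higher and 3.18% lower in CCR7 against X2. For CCR7-PDPN against X2 they were 4.09% and 5.36% in batch 1 and 3.96% and 5.67% in batch 2. They were 3.51% and 1.55% in X2-PDPN against X2 and 2.76% and 6.40% in CCR7-PDPN against X2-PDPN.

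The receptor's own pathway was read from a list of 12 genes (Ccr7, its ligands Ccl19, Ccl21a and Ccl21b, the scavenging receptor Ackr4, inhibitory G protein subunits, arrestins and receptor kinases), of which 7 were tested and 0 were in the set. In CCR7-PDPN against CCR7, edgeR called 0, beside 0.664% of all genes higher and 2.60% lower, and DESeq2 called 0. At an unadjusted p under 0.05 there were 5 higher and 1 lower, beside 24.6% and 24.4% of all genes. Of the 6 tested besides Ccr7, edgeR and DESeq2 each called 0 in CCR7 against X2, beside 3.30% higher and 3.18% lower by edgeR. There were 3 higher and 2 lower at an unadjusted p under 0.05, beside 27.2% and 27.6%. Gnai2, the G protein subunit with the highest count on the list, averaged 359 CPM in X2, 450 CPM in CCR7 and 542 CPM in CCR7-PDPN, and the arrestin Arrb1 5.10, 7.58 and 4.46 CPM. The ligands and Ackr4 had 0 reads in all 12 libraries of batch 1. The list's median log2 fold change was 0.11 in CCR7-PDPN against CCR7 and 0.07 in CCR7 against X2 without Ccr7.

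The set lay on 14 chromosomes, with 5 genes on chromosome 3 (22.7% of the set, beside 4.90% of the genes in both tables) and 3 on chromosome 4 (13.6%, beside 6.20%). The nearest tested genes on either side of the members were 44 genes, and 0 of them were members. Their ratios of CCR7 to X2 ran from 0.337 to 4.10 with a median of 1.00, and edgeR called 3 of them higher and 1 lower, beside 3.30% and 3.18% of all genes. The 3 were Pcdhga3, which overlaps Pcdhgb1, Gm20632 near Gm20633, at 0.612 CPM in X2 and 2.51 CPM in CCR7, and Ceacam16, which overlaps Gm19345 on the other strand, at 0.321 and 0.724 CPM. All 3 share windows of 75 bases with their member, Pcdhga3 2045 with Pcdhgb1, Gm20632 870 with Gm20633 and Ceacam16 233 with Gm19345, so they are not readings independent of it. The gene called lower was Fhdc1, beside Trim2, at 15.5 and 5.21 CPM. The 4 are named after their values were seen.

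On chromosome 3, Tmem144, Trim2 and Mab21l2 lay within 6736066 bases, from 79812564 to 86548629. Of the 17 other tested genes of that stretch, edgeR called 2 in CCR7 against X2, both lower, namely Fhdc1 and Tlr2, which went from 4.30 to 1.54 CPM and is named after its values were seen. Their median log2 fold change was −0.08. Over all genes, 3.30% were called higher and 3.18% lower. Lrba, which overlaps Mab21l2 and reaches past the stretch, rose from 26.4 to 38.5 CPM, a log2 fold change of 0.56 (SE 0.08) that was not called.

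Reads of 1 gene can be counted for another where exons overlap or sequences repeat. In the annotation, 18 of the 22 genes had no exon of another gene on their strand, 5 lay opposite an exon of another gene and 15 were free on both strands. Of the genes with at least 1 CPM that overlapped a member, Lrba opposite Mab21l2 averaged 26.4 CPM in X2 and 38.5 CPM in CCR7, and Plod2 opposite Gm38391 averaged 66.4 and 94.3 CPM. The strand setting of the counting is not given in the sources used here, and the part of these genes in the members' counts was not tested.

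Windows of 75 bases with the same letters were then sought in the transcripts of genes elsewhere, and 18 members shared none, among them Tmsb4x with 0 of 1337 windows. The other 4 were Gm20633 with 31.6% of its windows, Gm43305 with 12.5%, Gm14963 with 0.805% and Cryzl2 with 0.598%. All 870 such windows of Gm20633 occurred in Gm20632. The partners with the highest counts of the others were far above them in batch 1. Gm43305 shared 69 windows with AI506816, at 362 CPM in X2 and 435 CPM in CCR7. Gm14963 shared 10 with Mtdh, at 528 and 523 CPM, and Cryzl2 15 with Acaca, at 86.4 and 91.2 CPM. These partners are named after their values were seen, and their part in the members' counts was not tested.

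The 4 members with a mean under 0.2 CPM in X2 of batch 1 were Tmsb4x, Cryzl2, Tmem144 and Gfra4. Pcdhgb1 at 0.201 CPM and Gm43672 at 0.211 CPM lay just over that cut. The promoters of the 4 are shown to let the starts of these RNAs be compared. RefSeq (build GRCm38.p6) gave a promoter of 300 bases, 250 before and 50 after the start, for 16 of the 22 genes. For 5 of them several starts are listed, and the start nearest to the outer end of the gene in GENCODE was taken, though the start in use was not measured here. It lay 2102 bases from that end in Trim2 and 4686 in Enthd1, and at most 533 in the other 14. The windows were searched on both strands for the TATA box written as TATAAA, the GC box written as GGGCGG, the E-box written as CACGTG and the box CCAAT, and capitals mark the matches. The sequences lie at chrX:167209169-167209468 on the minus strand for Tmsb4x, chr1:157458318-157458617 on the plus strand for Cryzl2, chr3:79852719-79853018 on the minus strand for Tmem144 and chr2:131043039-131043338 on the minus strand for Gfra4.
Tmsb4x: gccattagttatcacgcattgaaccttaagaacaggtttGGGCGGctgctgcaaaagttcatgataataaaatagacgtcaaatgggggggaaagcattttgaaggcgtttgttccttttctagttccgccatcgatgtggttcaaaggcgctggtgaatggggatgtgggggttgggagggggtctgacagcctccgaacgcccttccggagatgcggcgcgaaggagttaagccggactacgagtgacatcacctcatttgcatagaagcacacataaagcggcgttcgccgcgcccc
Cryzl2: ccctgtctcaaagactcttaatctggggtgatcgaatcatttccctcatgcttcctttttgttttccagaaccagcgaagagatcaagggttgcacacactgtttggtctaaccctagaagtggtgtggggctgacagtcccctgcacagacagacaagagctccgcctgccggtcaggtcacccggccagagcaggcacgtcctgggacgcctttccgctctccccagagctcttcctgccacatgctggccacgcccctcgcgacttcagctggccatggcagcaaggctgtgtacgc
Tmem144: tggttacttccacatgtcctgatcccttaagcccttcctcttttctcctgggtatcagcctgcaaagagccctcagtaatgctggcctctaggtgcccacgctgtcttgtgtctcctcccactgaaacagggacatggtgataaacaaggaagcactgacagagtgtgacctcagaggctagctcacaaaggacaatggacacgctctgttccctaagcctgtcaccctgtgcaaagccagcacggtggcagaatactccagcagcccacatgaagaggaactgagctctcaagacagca
Gfra4: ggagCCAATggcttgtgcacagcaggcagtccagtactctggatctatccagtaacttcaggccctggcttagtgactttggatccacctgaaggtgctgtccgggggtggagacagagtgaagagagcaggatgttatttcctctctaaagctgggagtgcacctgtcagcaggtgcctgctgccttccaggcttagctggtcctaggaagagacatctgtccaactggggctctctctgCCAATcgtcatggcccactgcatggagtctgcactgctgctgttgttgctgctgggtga

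Tmsb4x held the GC box, Gfra4 the CCAAT box, and Cryzl2 and Tmem144 held none of the 4 motifs in these windows. Tmem144 has 4 starts listed, and 1 of the others, 10094 bases from its end, held the CCAAT and GC boxes. Of the 16 promoters taken, 4 (25%) held TATAAA, beside 13.6% of all 32851 promoters in the table. A CCAAT box was in 4 (25%, beside 37.4%), a GC box in 7 (43.8%, beside 35.7%) and an E-box in 1 (6.25%, beside 7.15%). With every listed start of these genes the numbers were 5, 7, 10 and 2 genes, so they depend on the start taken. The number of CpG pairs ran from 2 in Gfra4 to 42 in 1700086P04Rik, with 20 in Tmsb4x, and had a median of 14.5, beside 7 over all promoters. Each member gave 1 promoter, while the background held 32851 promoters of 27025 genes, taken without regard to expression in these cells. The shares and medians are therefore not like for like. The matches describe the letters of these windows and no binding was measured.

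Several members are known from other cell types, so markers fixed in a list were read in the 12 libraries of batch 1. Of 6 neuron markers, all were under 1 CPM in every group, with Syt1 and Map2 at 0 in all libraries and a summed level of 0.0327 CPM in X2, 0.00860 CPM in CCR7 and 0.0327 CPM in CCR7-PDPN. Of 7 T cell markers, 6 were under 1 CPM, Cd3e and Cd8a were at 0 in all libraries, and the summed level of 5.54, 4.04 and 2.86 CPM in X2, CCR7 and CCR7-PDPN came mostly from Lck (5.36, 4.01 and 2.82 CPM). The neuron markers were thus at or near 0, and so were the T cell markers other than Lck, whose part in the levels of the set was not tested.

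Other marker lists moved between the groups. The 7 dendritic or myeloid markers, 5 of them under 1 CPM, summed to 9.05 CPM in X2, 3.88 CPM in CCR7 and 2.26 CPM in CCR7-PDPN, most of the fall being Lyz2 (6.91, 1.87 and 0.712 CPM). Cd74 had its highest mean in CCR7 (1.42, 1.69 and 1.28 CPM), a difference that was not tested, and Itgam was at 0 in X2 and CCR7. The 6 hepatocyte markers, 5 of them under 1 CPM and Ttr and Serpina1a at 0 in all libraries, summed to 1.40, 9.17 and 3.63 CPM, nearly all of it Afp (1.37, 9.14 and 3.58 CPM). The 6 muscle markers, 4 of them under 1 CPM and Myog at 0 in all libraries, summed to 41.7, 36.6 and 23.9 CPM, with Acta2 the most abundant (34.5, 29.2 and 14.2 CPM) and Des going the other way (6.92, 7.14 and 9.58 CPM). The part of these markers in the levels of the set was not tested.

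The line's own markers were present in part. The 4 epithelial markers summed to 234, 245 and 295 CPM in X2, CCR7 and CCR7-PDPN, all but a trace of it Krt8, while Krt18, Epcam and Cdh1 were under 1 CPM. The 4 mesenchymal markers summed to 2706, 2513 and 2752 CPM, most of it Vim, with Fn1 under 1 CPM.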

How the data were processed

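The values analysed were raw read counts per gene, as the authors deposited them in 1 table per batch, without normalisation. The table of batch 1 held 55471 genes and that of batch 2 held 13915, by a filter that is not stated. CPM used the column totals and TPM the exonic lengths in the table. Differences were tested within each batch over its 12 libraries with edgeR 4.0.16 in R 4.3.3 (TMM factors, filterByExpr, robust quasi-likelihood fits) and Benjamini-Hochberg adjustment. A gene was called at an adjusted p under 0.05 with a log2 fold change above 1 or below -1, and its standard error was that change, unsigned, divided by the root of F. Alternatives were DESeq2 1.42.0, other scalings and filters, a replicate block and each library left out. The rest used GENCODE M21 and Python 3.11.15 (matplotlib 3.10.9, scipy 1.17.1, pandas 2.3.3, numpy 2.4.6). The members and lists were chosen with earlier results of these data known. The rule named all members and the 3 genes nearest each threshold and allowed, without requiring, listed genes of at least 1 CPM and nearest neighbours. Other genes are marked as named after their values were seen. Values of every library were given for Ccr7, Tmsb4x, Pcdhgb1 and the 6 other members highest in CCR7.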

Additional observations from a re-analysis of the deposited data

Results flagged for a closer look

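In 8 of 138 groups of 4 libraries (5.80%), 1 library lay far from the other 3. Such groups also arise by chance, at a rate that was not measured for these counts. Psd2 was at 4.58 CPM in replicate 2 of X2 in batch 2, where the others were at 3.53 to 3.58 CPM. Cyp2j6 was at 9.44 CPM in replicate 2 of CCR7-PDPN in batch 1, with the others at 11.6 to 11.8 CPM. Anks1b was at 3.06 CPM in replicate 2 of CCR7, above 2.02 to 2.12 CPM in the others. Ccr7 was at 2774 CPM in replicate 4 of CCR7-PDPN in batch 1, below 3041 to 3095 CPM.

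The other 4 rest on few reads. Cryzl2 was at 0.209 CPM in replicate 2 of X2 in batch 1, from 5 reads where the others had 0 or 1. Gfra4 was at 0.0333 CPM, from 1 read, in replicate 4 of X2 in batch 2, with 0 in the others. In X2-PDPN, Gm19345 was at 0.364 CPM in replicate 2, above 0.294 to 0.305 CPM, and Gm14963 at 0.852 CPM in replicate 1, above 0.405 to 0.448 CPM.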

How the results depend on the processing

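In CCR7-PDPN against CCR7, 433 genes were called. The number was 210 when only genes with at least 50 counts were tested and 5513 without the threshold on fold change, and between 346 and 627 with DESeq2, RLE or upper-quartile factors, a filter of at least 1 count, a replicate block (428) or the 8 libraries compared alone. With each library left out in turn it ran from 424 to 480, the latter without replicate 1 of CCR7. The number of members called, 2, was 1 with the filter of 50 counts, under which 9 of the 22 members were not tested, Tmem144 among them, and 8 without the threshold, which by construction calls smaller changes. It was 2 in every run that left out a library (2 to 2) and with the replicate block. Deviations from the group means were correlated between libraries of different groups, to see whether equal replicate numbers went together. A library matched its own number best in 2 of 12 cases in batch 1 and 5 of 12 in batch 2. The median correlation of equal and unequal numbers was −0.048 and 0.0026 in batch 1, and 0.030 and −0.023 in batch 2. No rate for unpaired libraries was computed, so a weak pairing in batch 2 was not tested. The number of members, 22, was 50 at a ratio of 2, 7 with at least 5 CPM in CCR7, and 19 to 27 with each of the 24 libraries left out. In those runs 14 members were in every set, and the other 8 left it in at least 1 (Gm14963 in 5, Tspoap1 and Gm43305 in 4, Gm20633, Gm43672 and Trpv4 in 2, Anks1b and Gfra4 in 1). Scaling by TMM added Dmbx1. The log2 fold change changed sign with single libraries left out in Gm19345 (−0.023 to 0.25), Gm14963 (−0.11 to 0.012) and Gm43305 (−0.063 to 0.28), and the cause was not tested. Alternatives for the lists were added after the data were seen. Gamma protocadherins called in CCR7 against X2 went from 3 to 6 with DESeq2 or a filter of at least 1 count and to 0 with the filter of 50, which removed those called. In CCR7-PDPN against CCR7 they went from 0 to 1 with DESeq2 and with the filter of 1 count. Actin monomer binders called went from 2 to 1 and from 1 to 0 with the filter of 50, which removed Pfn2, and the receptor's pathway had 0 throughout.

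Depth limits the low members most. A gene at 1 CPM rests on about 30 reads a library, 13 members were under 0.5 CPM in X2, and ratios against such levels carry wide intervals. With 1 line per derivative and technical replicates alone, other differences between the derivatives and an effect of the receptor cannot be told apart.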
